A study of Mus musculus with 16 samples.

Results

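Serpins are a family of proteins named for serine protease inhibitors. Their members were taken as every gene whose symbol is Serpin followed by a clade letter from a to i and a number. Of such mouse genes in the RefSeq annotation 68 are reported here, and 54 of them had a probe on the array, among 19096 genes with a symbol and a probe. Of these 54, 41 were tested, because a probe had to be well above background on at least 4 of the 16 arrays and measured on all of them. The 41 comprised 13 of 29 clade A genes, 18 of 29 clade B genes and the 10 genes reported of clades C to I. These 41 are described here by clade and by role, and 14 of them passed the test in at least 1 of 5 comparisons.

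An inhibitory serpin offers its target protease a bait loop, is cut, and springs into a new fold that traps the enzyme for good. The extracellular clades restrain clotting, fibrinolysis, complement and leukocyte enzymes, whereas clade B members lie mainly inside cells and guard them against their own granule proteases. Some members no longer inhibit proteases and serve instead as a collagen chaperone, a hormone carrier or a growth regulator. In the uterus, proteases and their inhibitors take part in tissue remodelling, in implantation and in leukocyte traffic. Dexamethasone is a synthetic agonist of the glucocorticoid receptor, and genistein is a soy isoflavone that can act on oestrogen receptors.

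The study asked whether genistein given early in life alters glucocorticoid signalling in the adult uterus. In all, 4 groups of 4 single-colour arrays were compared, each from RNA of whole mouse uterus. All mice had their adrenal glands and ovaries removed at 6 weeks of age and were injected intraperitoneally at 8 weeks, 4 h before the uterus was taken. SalV mice received 20 µl corn oil on postnatal days 1 to 5 by the design text, where the sample labels say saline, and 100 µl saline vehicle as adults. SalD mice had the same neonatal treatment and 1 mg/kg dexamethasone as adults. GenV mice received 50 mg/kg genistein in corn oil on postnatal days 1 to 5 and the vehicle as adults, and GenD mice received both genistein and dexamethasone. The labels give no strain and do not say whether an array held 1 mouse or a pool, so the p-values measure the spread between these samples. Without adrenals and ovaries, the mice lack their main sources of glucocorticoid and ovarian steroid, a limit of the model that all 4 groups share.

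The 75th percentile of the processed signal lay between 948 and 2719 units per array, with 68.9% to 81.3% of probes well above background, and the number of arrays limits the precision. Replicates of a group correlated at 0.963 to 0.988 over all features, and arrays of different groups at 0.933 to 0.986. SalV replicate 1 stood apart from its group on the first principal component (-68.3, against 8.93 to 18.1 for the other SalV arrays), and SalV replicate 3 was alone on its slide and scanned on another day. On the second component GenV was split, with replicates 1 and 2 at -42.5 and -52.2 and replicates 3 and 4 at 73.2 and 49.7. Of 9 uterine identity genes, 8 were tested, and their mean level lay between 1.22 and 2.01 log2 units above the array's 75th percentile on all 16 arrays. Every level below is log2 of the processed signal minus that percentile, so 0 is the percentile of the array itself and levels of different probes cannot be ranked against each other. A gene was called when the limma test over all 24666 features gave a Benjamini-Hochberg adjusted p under 0.05, and rose or fell is written only of called genes.

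RefSeq promoter windows of 250 bases before and 50 after a transcription start (build GRCm38.p6) were given for 54 serpin genes in 63 windows, and 10 of the 14 called genes had one. The glucocorticoid receptor's core motif, searched on both strands as GNACA, then 3 bases of any kind, then TGTNC, was found in 3 of the 63 serpin windows (4.76%) and in 156 of all 32851 windows (0.475%). The 3 windows belonged to Serpina3n, Serpina3c and Serpinf2. Serpina3n and Serpina3c, secreted inhibitors of the antichymotrypsin group, lie in a cluster on chromosome 12 and had the same 13 letters, from 78 to 66 bases before the start in Serpina3n and from 75 to 63 bases before it in Serpina3c. Both genes rose after dexamethasone, Serpina3n in both settings and Serpina3c in SalD minus SalV only. Their 250 bases before the start are therefore shown, with the core motif in capitals:
Serpina3n, chr12:104406458-104406707, plus strand: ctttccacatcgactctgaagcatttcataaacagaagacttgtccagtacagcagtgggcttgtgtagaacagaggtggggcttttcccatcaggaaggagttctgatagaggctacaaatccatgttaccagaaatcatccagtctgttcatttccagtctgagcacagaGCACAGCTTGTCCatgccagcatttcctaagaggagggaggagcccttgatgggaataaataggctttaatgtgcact
Serpina3c, chr12:104153873-104154122, minus strand: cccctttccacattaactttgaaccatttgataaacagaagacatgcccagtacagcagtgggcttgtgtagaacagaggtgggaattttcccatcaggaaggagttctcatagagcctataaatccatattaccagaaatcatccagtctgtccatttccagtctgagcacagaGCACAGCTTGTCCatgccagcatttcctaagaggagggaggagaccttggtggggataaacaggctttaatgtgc
The full windows of both genes shared 275 of 294 aligned bases (93.5%). The third core motif, GAACACCGTGTGC in Serpinf2, lay 3 to 15 bases after the start, and Serpinf2, the plasmin inhibitor, was called in no comparison. A matched motif is a description of these letters and does not show that the receptor was bound.

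The same stretch was then compared across the other tested Serpina3 genes that had a window. For Serpina3n the 13 core bases are in capitals, with 10 bases on either side. For the other genes the capitals mark bases that differ from Serpina3n at the best match within the window:
Serpina3n, chr12:104406620-104406652, plus strand: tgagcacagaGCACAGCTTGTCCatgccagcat
Serpina3c, chr12:104153925-104153957, minus strand: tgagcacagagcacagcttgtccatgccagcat
Serpina3f, chr12:104214449-104214481, plus strand: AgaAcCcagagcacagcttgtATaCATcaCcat
Serpina3b, chr12:104127908-104127940, plus strand: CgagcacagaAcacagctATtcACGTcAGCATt
Serpina3c had no difference over all 33 bases. Serpina3f had 9 differences, of which C22A and C23T fell within the core when positions are counted from 1 at the 5′ end of the 33 bases and the Serpina3n base is given first. Serpina3b had 13 differences, 4 of them in the core. The best matches in Serpina3j and Serpina3a had 15 and 19 differences. Serpina3m, Serpina3k, Serpinb1a and Serping1 have no entry in the table of windows used here.

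Windows of 3 clade B genes are shown because these genes fell after dexamethasone, Serpinb2 in GenD minus GenV only on its brightest probe. In Serpinb2 the capitals mark an AP-1 motif, searched as TGANTCA, which was found in 12 of the 63 serpin windows (19.0%) and in 7.81% of all windows. The 12 windows belonged to 11 genes, because the same Serpinb2 site lies in 2 overlapping windows. Among these genes were Serpina1a, Serpina1b, Serpina1c and Serpina1d, all with the letters TGACTCA. In Serpinb1b and Serpinb1c no letter is capital, because the core motif, the half-site AGAACA and the AP-1 motif were not found there:
Serpinb2, chr1:107511173-107511422, plus strand: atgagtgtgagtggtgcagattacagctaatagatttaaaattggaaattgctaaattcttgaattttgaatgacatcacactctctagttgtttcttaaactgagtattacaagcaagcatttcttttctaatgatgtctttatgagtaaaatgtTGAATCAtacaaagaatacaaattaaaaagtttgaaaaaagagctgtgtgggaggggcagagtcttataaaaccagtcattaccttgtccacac
Serpinb1b, chr13:33083853-33084102, plus strand: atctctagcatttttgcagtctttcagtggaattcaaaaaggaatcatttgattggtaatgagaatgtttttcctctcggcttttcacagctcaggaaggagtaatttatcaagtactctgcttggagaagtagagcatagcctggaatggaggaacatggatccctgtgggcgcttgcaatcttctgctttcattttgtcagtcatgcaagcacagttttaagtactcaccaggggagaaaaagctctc
Serpinb1c, chr13:32898141-32898390, minus strand: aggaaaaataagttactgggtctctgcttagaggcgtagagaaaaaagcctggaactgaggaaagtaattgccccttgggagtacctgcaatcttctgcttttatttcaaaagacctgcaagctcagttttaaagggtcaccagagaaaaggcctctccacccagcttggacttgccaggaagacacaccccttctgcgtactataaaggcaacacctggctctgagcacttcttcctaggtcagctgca
The Serpinb2 motif lay 94 to 88 bases before the start shown, and a TATAAA box lay 29 to 24 bases before it. From the second Serpinb2 start the same motif lay 181 to 175 bases away. Serpinb1b and this start of Serpinb1c shared 153 of 201 aligned bases of their full windows (76.1%). The half-site AGAACA was found in 25 of the 63 serpin windows (39.7%), those of 24 genes, against 19.0% of all windows. The other motifs searched also had higher shares in serpin windows than in all windows. These were C/EBP (27.0% against 10.8%), STAT (17.5% against 8.3%), NF-kappaB (4.76% against 1.63%) and TATA (28.6% against 13.6%). A higher share was thus not particular to the glucocorticoid receptor or AP-1 motifs. Overlapping windows and close gene copies were counted separately in these shares, so the windows are not independent.

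Dexamethasone in the mice given corn oil as pups changed 7 of the 41 serpins (17.1%), 3 upward and 4 downward, where 23.0% of all features were called (8.44% higher and 14.6% lower). The 3 that rose were the secreted inhibitors Serpina3c, Serpina3m and Serpina3n, and the 4 that fell were the intracellular Serpinb1a, Serpinb1b and Serpinb1c and the complement inhibitor Serping1. Thus 3 of 13 clade A genes rose and 3 of 18 clade B genes fell, with none in the other direction in either clade. The median log2 difference was -0.18 over the serpins and -0.16 over all features. SalD and SalV arrays did not overlap for 7 serpins, where 28.3% of all features did not overlap. In the mice given genistein as pups, dexamethasone changed 6 serpins (14.6%), 1 upward and 5 downward, where 5.28% of all features were called (2.49% higher and 2.79% lower). GenD and GenV arrays did not overlap for 8 serpins, where 12.2% of all features did not. In that setting Serpina3n rose, and Serpinb1a, Serpinb1b, Serpinb1c, Serpinb2 and Serpinb9 fell. The 4 genes called in both settings had the same direction in both. These comparisons share no array, but their p-values use a spread pooled over all 16 arrays. The share of serpins called was below that of all features in the corn-oil mice and above it in the genistein mice, which is a description without a test. In clade B, 16 of 18 genes were below 0 in GenD minus GenV, with a median of -0.71, and 14 of 18 were below 0 in SalD minus SalV, with a median of -0.24. Over all features the medians were -0.015 and -0.16, and 48.3% and 39.5% were above 0.

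**Figure D1:**
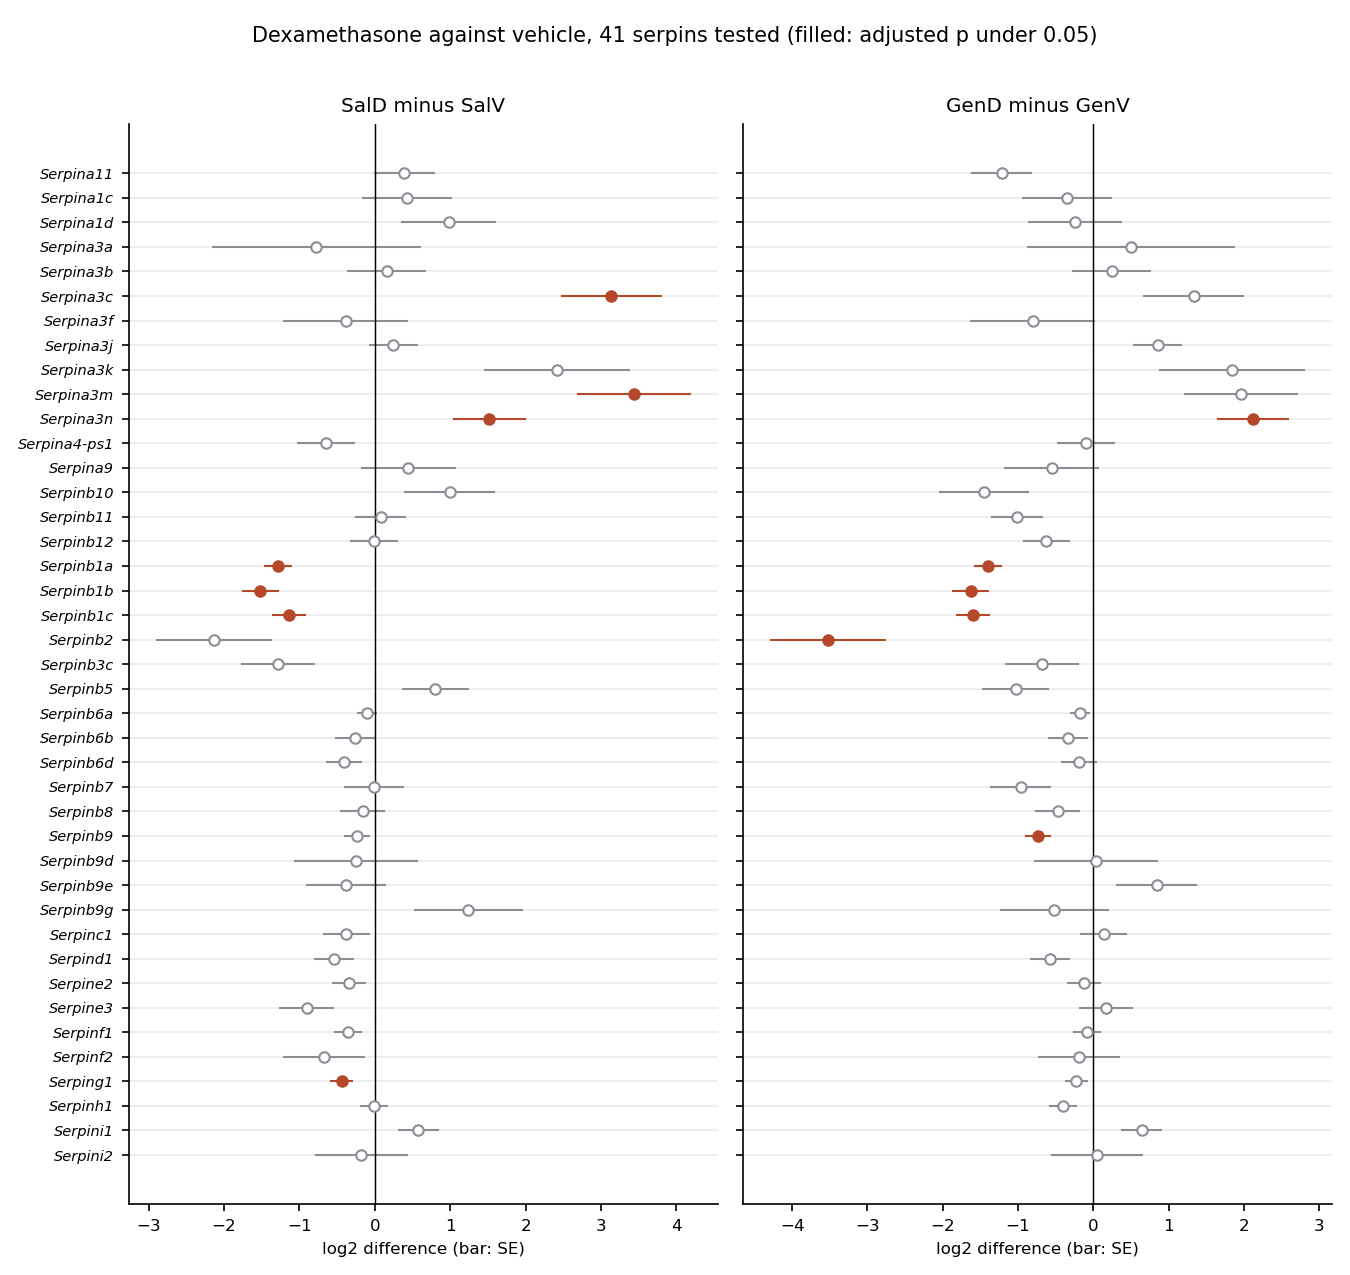
Log2 difference of dexamethasone against vehicle (x axis, bars are the standard error of the fit) for each of the 41 serpins tested (y axis, by clade), on the left for SalD minus SalV and on the right for GenD minus GenV. Filled points are the 7 and 6 called genes, and Serpinb1a, Serpinb1b and Serpinb1c lie left of 0 in both panels, Serpina3n right of 0 in both.

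Serpinb1a, the mouse counterpart of the inhibitor of leukocyte elastase, proteinase 3 and cathepsin G, measured 1.81, 1.61, 1.86 and 1.59 on SalV replicates 1 to 4 and -0.11, 0.32, 0.64 and 0.90 on the SalD replicates. It measured 1.96, 1.79, 2.37 and 1.95 in GenV and 0.70, 0.58, 0.57 and 0.63 in GenD. Every dexamethasone array lay below every vehicle array in both settings, and the GenD arrays lay closest together. The log2 difference was -1.28 (SE 0.19, 2.43-fold lower, limma adjusted p = 0.000729, n = 4 per group) for SalD minus SalV and -1.40 (SE 0.19, 2.64-fold lower, limma adjusted p = 0.000653) for GenD minus GenV. Both calls held under all 30 alternatives tried, with log2 differences no closer to 0 than -1.05 and -1.26.

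The paralogs Serpinb1b and Serpinb1c lie beside Serpinb1a on chromosome 13 and moved with it. Serpinb1b measured -3.45, -3.64, -3.88 and -3.87 in SalV against -5.87, -4.88, -5.18 and -4.99 in SalD. It measured -3.77, -3.35, -2.97 and -3.32 in GenV against -5.16, -4.44, -5.35 and -4.99 in GenD. Its log2 differences were -1.52 (SE 0.25, limma adjusted p = 0.00126) and -1.63 (SE 0.25, limma adjusted p = 0.00141). For Serpinb1c the SalV arrays measured -1.85, -2.02, -2.25 and -1.50 and the SalD arrays -3.60, -2.91, -2.91 and -2.77. The GenV arrays measured -1.96, -1.79, -1.22 and -1.31 and the GenD arrays -3.17, -2.83, -3.31 and -3.38. Serpinb1c fell by 1.14 on the log2 scale in SalD (SE 0.23, limma adjusted p = 0.00425) and by 1.60 in GenD (SE 0.23, limma adjusted p = 0.000971). As with Serpinb1a, no dexamethasone array of either gene reached the vehicle range. After normexp background correction the GenD minus GenV calls of Serpinb1b (-0.16, adjusted p = 0.831) and Serpinb1c (-0.95, adjusted p = 0.128) were lost. A dimmer second probe of Serpinb1b differed by -0.14 in SalD minus SalV (adjusted p = 0.852 over all probes) and by -1.46 in GenD minus GenV (adjusted p = 0.0786), and that of Serpinb1c by -0.87 (adjusted p = 0.187) and -1.66 (adjusted p = 0.0564). Whether the probes tell these close copies apart was not tested.

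Neutrophils express Serpinb1a strongly, and markers of these cells moved with the Serpinb1 genes. The 8 neutrophil markers tested of 10 listed had a mean level per array of -3.64 to -3.19 in SalV, -5.26 to -4.34 in SalD, -3.78 to -2.43 in GenV and -5.21 to -4.34 in GenD. Of the 8, 5 fell in each dexamethasone comparison and none rose, where 14.6% (SalD minus SalV) and 2.79% (GenD minus GenV) of all features were lower. Csf3r, Fpr1, S100a8 and S100a9 fell in both, with log2 differences for S100a9 of -2.82 (SE 0.56) and -2.95 (SE 0.56). Ly6g and Ngp were not tested. In whole-organ RNA, fewer cells of a type and less RNA per cell cannot be told apart, and the part of the neutrophil markers in the fall of the Serpinb1 genes was not tested.

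**Figure D2:**
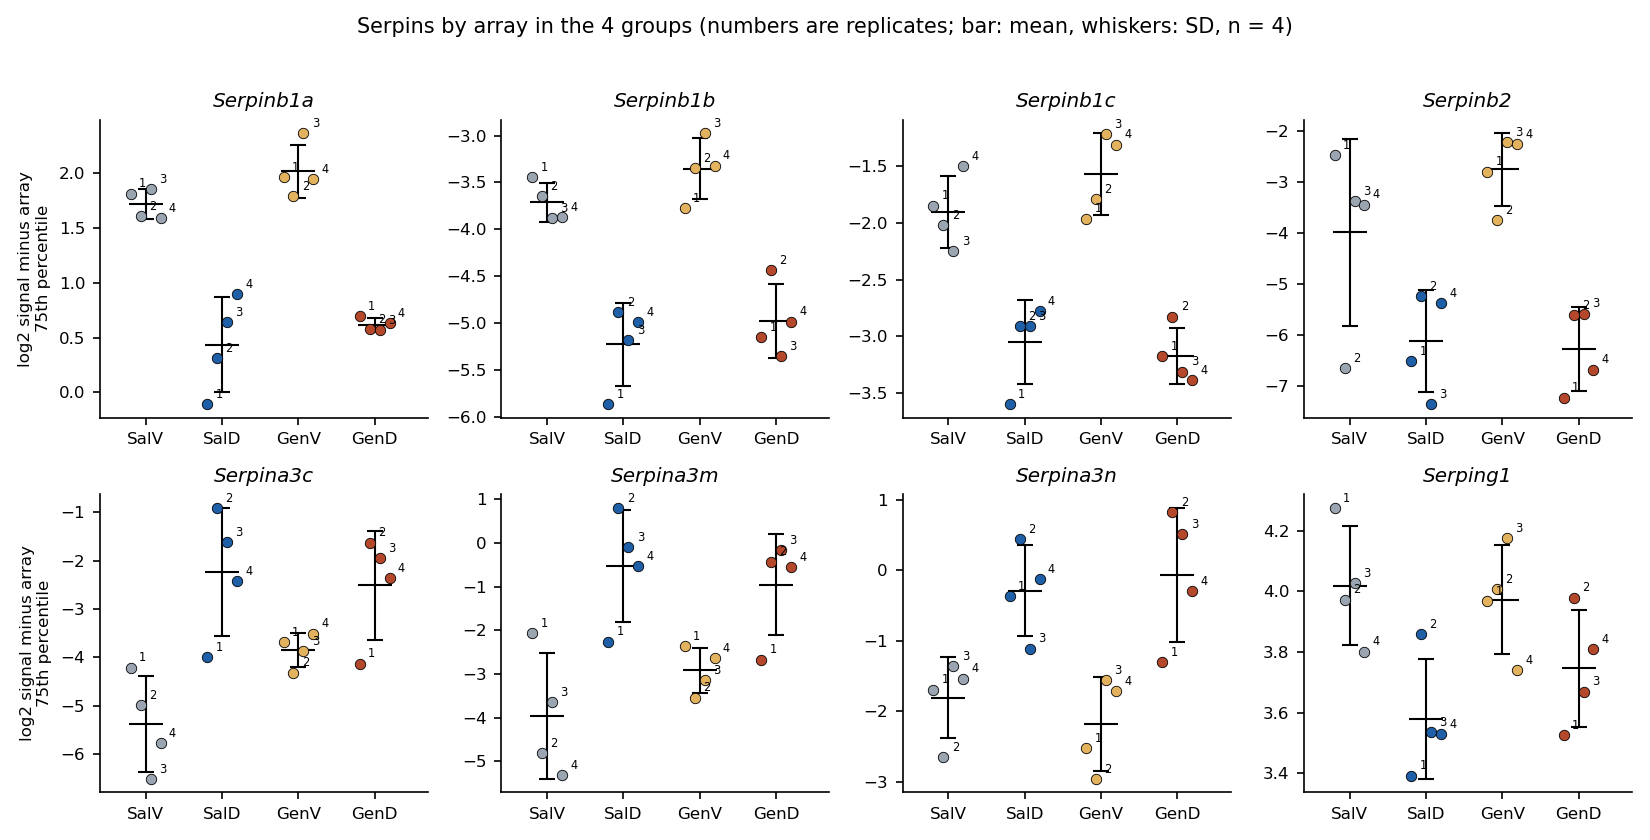
Log2 signal minus the array's 75th percentile (y axis) of 8 serpins on each of the 16 arrays, by group (x axis). Points are arrays with their replicate number, the long bar is the group mean and whiskers are the SD (n = 4). In the Serpinb1a, Serpinb1b and Serpinb1c panels both dexamethasone groups lie wholly below both vehicle groups, while SalD replicate 1 and GenD replicate 1 are the lowest dexamethasone arrays for Serpina3c and Serpina3m.

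Serpinb2 encodes plasminogen activator inhibitor 2, an inhibitor of urokinase that macrophages and epithelia make. It measured -2.79, -3.74, -2.22 and -2.25 in GenV and -7.23, -5.61, -5.58 and -6.68 in GenD, and only 2 of the GenD arrays were well above background. The fall of 3.53 on the log2 scale (SE 0.77, 11.5-fold, limma adjusted p = 0.0163) was the largest of any called serpin. In the corn-oil mice Serpinb2 measured -2.47, -6.65, -3.37 and -3.44 in SalV and -6.52, -5.24, -7.36 and -5.37 in SalD. SalV replicate 2 lay within the SalD range, and the difference of -2.14 (SE 0.77, limma adjusted p = 0.0587) was not called. A second probe of the gene gave -2.29 (adjusted p = 0.0402) and -4.54 (adjusted p = 0.00278), both called. Of 10 macrophage markers, Cd163 rose and Clec4n and Fcgr1 fell in both settings, Mrc1 was called in SalD minus SalV, and the part of macrophages in the Serpinb2 values was not tested. The GenD minus GenV call was lost without GenD replicate 1 (-3.21, adjusted p = 0.0504), without GenV replicates 3 and 4 together (-3.01, adjusted p = 0.0928) and under normexp (-0.93, adjusted p = 0.347).

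Serpinb9, the intracellular inhibitor of granzyme B, also fell after dexamethasone in the genistein mice. Its levels were -2.04, -1.66, -1.50 and -1.79 in GenV and -2.77, -2.32, -2.43 and -2.40 in GenD, without overlap. The log2 difference was -0.73 (SE 0.17, limma adjusted p = 0.0216), and it was -0.23 (SE 0.17, adjusted p = 0.335) in the corn-oil mice. A dimmer probe of Serpinb9 fell in both settings, by 0.58 in GenD (adjusted p = 0.0452) and by 1.09 in SalD (adjusted p = 0.000614), so the probes disagreed on the corn-oil mice. The call from the brighter probe was lost without GenV replicate 2 (-0.71, adjusted p = 0.0535), GenV replicate 3 (-0.65, 0.0596), GenD replicate 1 (-0.64, 0.0635) or GenD replicate 3 (-0.75, 0.0532). It was lost in 9 of 30 alternatives in all, which include normexp (-0.33, adjusted p = 0.425), median scaling (0.0759), a fit of the compared arrays alone (0.0772) and GenV replicates 3 and 4 left out together (0.0934).

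Among the genes that rose, Serpina3n, a secreted acute-phase inhibitor of cathepsin G and granzyme B, was called in both settings. Its SalV arrays measured -1.69, -2.65, -1.36 and -1.54 and its SalD arrays -0.37, 0.45, -1.11 and -0.13. The GenV arrays measured -2.52, -2.96, -1.56 and -1.71 and the GenD arrays -1.31, 0.83, 0.51 and -0.29. No dexamethasone array lay within the vehicle range of its setting, although SalD replicate 3 and GenD replicate 1 came close to it. The log2 difference was 1.52 (SE 0.48, 2.87-fold, limma adjusted p = 0.035) in SalD minus SalV and 2.12 (SE 0.48, 4.35-fold, limma adjusted p = 0.0193) in GenD minus GenV. The first call was lost without SalV replicate 1 (adjusted p = 0.0727), SalV replicate 2 (0.0966), SalD replicate 1 (0.0635), SalD replicate 2 (0.0861) or SalD replicate 4 (0.083), with log2 differences between 1.24 and 1.56. The second was lost without GenV replicate 1 (adjusted p = 0.0565), GenV replicate 2 (0.0553), GenD replicate 2 (0.0629) or GenD replicate 3 (0.0656), with log2 differences between 1.82 and 2.01. The first was also lost under normexp (1.11, adjusted p = 0.0663) and without SalD replicates 2 and 3 together (1.56, adjusted p = 0.0861). A fit of the compared arrays alone lost the second (2.12, adjusted p = 0.0848). In all, 7 and 5 of 30 alternatives lost these calls.

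Serpina3c and Serpina3m, neighbours of Serpina3n, had the largest rises in the corn-oil mice. Serpina3c measured -4.21, -4.99, -6.51 and -5.78 in SalV and -4.0, -0.91, -1.62 and -2.42 in SalD, a log2 difference of 3.14 (SE 0.67, 8.79-fold, limma adjusted p = 0.00552) with no overlap. Serpina3m measured -2.06, -4.81, -3.63 and -5.31 in SalV and -2.26, 0.81, -0.10 and -0.52 in SalD, a log2 difference of 3.43 (SE 0.76, 10.8-fold, limma adjusted p = 0.00684), with SalD replicate 1 inside the SalV range. In the genistein mice Serpina3c measured -3.69, -4.31, -3.87 and -3.51 in GenV and -4.13, -1.62, -1.94 and -2.35 in GenD. Serpina3m measured -2.35, -3.54, -3.13 and -2.64 in GenV and -2.67, -0.42, -0.16 and -0.55 in GenD. GenD replicate 1 lay among the GenV arrays for both genes, and neither difference was called (1.33, SE 0.67, adjusted p = 0.32 and 1.97, SE 0.76, adjusted p = 0.172). With SalD replicates 2 and 3 both left out, the SalD minus SalV calls of Serpina3c (2.16, adjusted p = 0.0644) and Serpina3m (2.56, adjusted p = 0.0721) were lost, and under normexp Serpina3c was at 1.15 (adjusted p = 0.15).

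Serpina3k, chosen after its values were seen, was not called but was detected on dexamethasone arrays alone. No SalV or GenV array was well above background, against 3 of 4 in SalD and 3 of 4 in GenD. The measured log2 difference was 2.41 (SE 0.97, limma adjusted p = 0.0858) in SalD minus SalV. It was 1.85 (SE 0.97, limma adjusted p = 0.35) in GenD minus GenV. Bounds on the fold, which were not themselves tested, were 1.60 in SalD and 1.15 in GenD. Under normexp the SalD minus SalV difference turned to -0.57, and the gene passed the filter through the dexamethasone groups alone. These bounds set the bright group's mean against the higher, on each dim array, of the probe's own level and the lowest level among probes well above background. The arrays below background were replicate 1 in both dexamethasone groups (-9.38 and -9.05, against -6.61 to -3.80 on the others). The other tested Serpina3 genes, Serpina3a, Serpina3b, Serpina3f and Serpina3j, were not called, with differences from -0.78 to 0.25 in SalD minus SalV and from -0.80 to 0.86 in GenD minus GenV.

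Fat cell markers differed between arrays in a like order to part of this cluster. The mean level of 10 adipocyte markers, all tested, was 0.14, -1.62, -0.89 and -2.95 on SalV replicates 1 to 4 and -0.57, 2.82, 2.89 and 1.32 on the SalD replicates. It was 1.00, -0.15, 0.57 and 1.24 in GenV and -1.18, 1.52, 1.46 and 1.34 in GenD. Of the 10 markers, 6 rose in SalD minus SalV, where 8.44% of all features were higher, and none was called in GenD minus GenV. Among the 6, Cidec rose by 4.33 (SE 1.09, limma adjusted p = 0.0129) and was well above background on every SalV and SalD array. The median of the 10 was 2.62 in GenV minus SalV, with none called. SalD replicate 1 and GenD replicate 1, which had the lowest marker levels of the dexamethasone arrays, also had the lowest Serpina3c, Serpina3k and Serpina3m. Serpina3n did not follow this order in SalD, where replicate 3, with the highest marker mean, had the lowest Serpina3n. The part of fat cells in these differences was not tested.

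**Figure D3:**
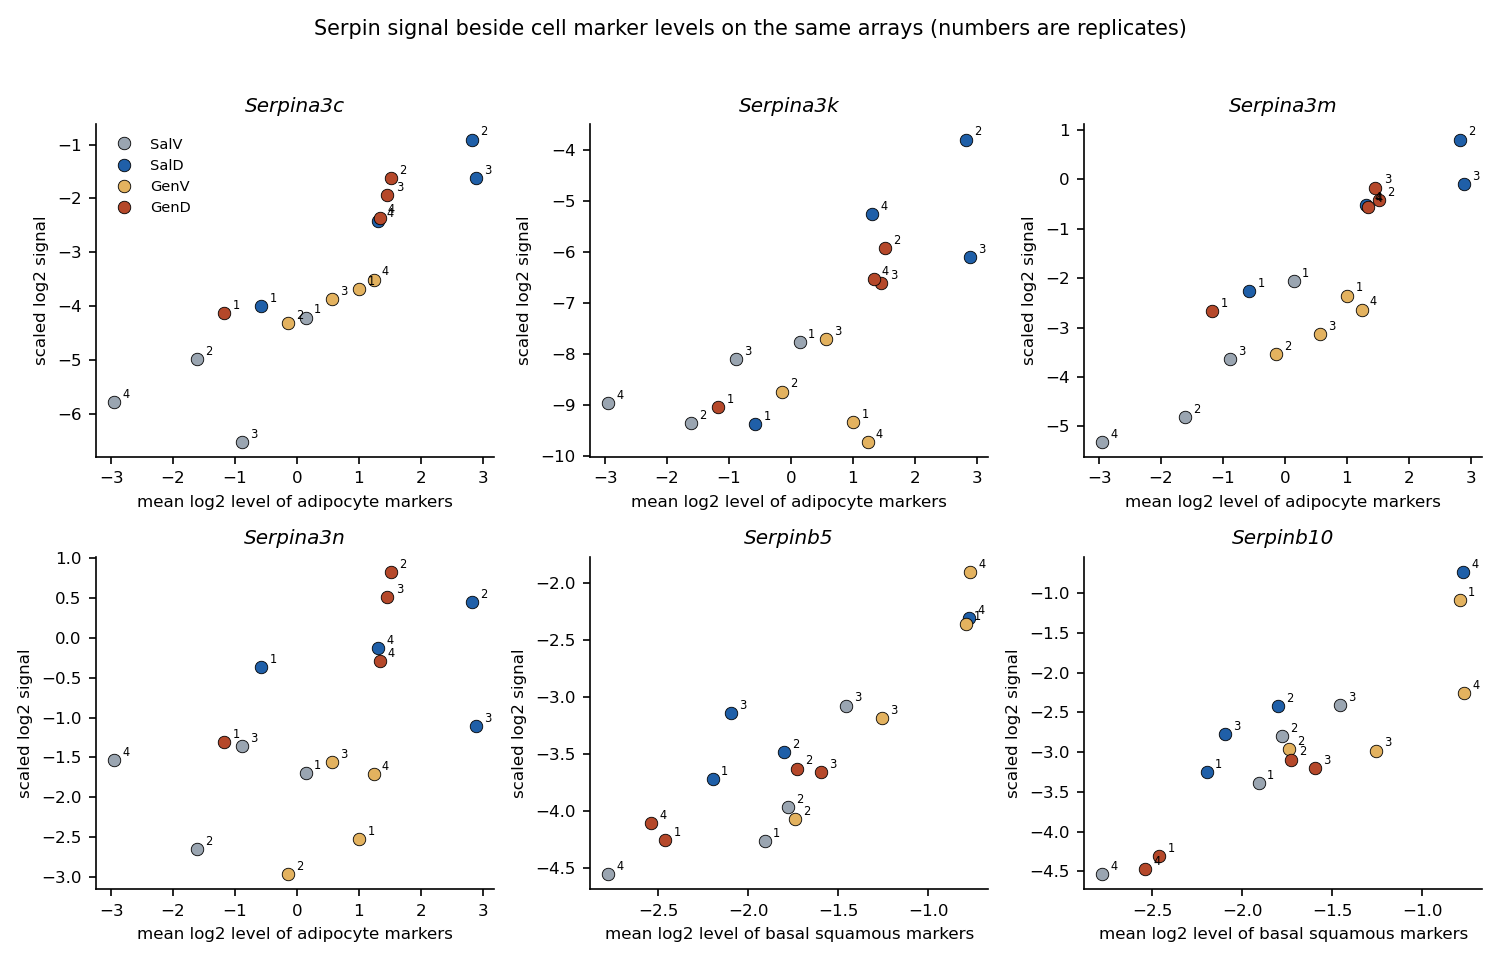
Log2 signal minus the array's 75th percentile of 6 serpins (y axes) against the mean level of the 10 adipocyte markers or the 6 basal squamous epithelium markers tested (x axes, same scale), with 1 point per array coloured by group and numbered by replicate. SalD replicate 1 and GenD replicate 1 sit at the low end of the dexamethasone arrays for Serpina3c, Serpina3k and Serpina3m, and SalD replicate 4, GenV replicate 1 and GenV replicate 4 sit together at the high end of both axes for Serpinb5.

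Serping1, the inhibitor of complement C1 proteases and kallikrein, measured 4.28, 3.97, 4.03 and 3.80 in SalV and 3.39, 3.86, 3.54 and 3.53 in SalD. The groups overlapped at SalD replicate 2, and the log2 difference of -0.44 (SE 0.15, 1.36-fold lower, limma adjusted p = 0.0492) was close to the threshold. It was lost in 17 of 30 alternatives, among them without any 1 of 10 arrays, where adjusted p was at most 0.151. Those arrays were SalV replicates 1, 2 and 3, SalD replicates 1, 3 and 4, GenV replicates 1 and 2 and GenD replicates 3 and 4. In the genistein mice the difference was -0.23 (SE 0.15, adjusted p = 0.491). Scaling each array to its median instead gave -0.21 (adjusted p = 0.383) for SalD minus SalV, and moved the median of all features from -0.16 to 0.07 in that comparison and the share of calls that were higher from 36.7% to 64.8%.

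The difference between the dexamethasone responses of the genistein and corn-oil mice was tested as an interaction. No serpin and no feature was called by limma (0% of all features), with 4 serpins and 3833 features at an unadjusted p under 0.05. The smallest adjusted p among the serpins was 0.223, for Serpinb5, the tumour suppressor maspin, which had an interaction of -1.83 (SE 0.63). Both responses of the called genes therefore stand side by side as values: Serpina3c at 3.14 and 1.33, Serpina3m at 3.43 and 1.97, and Serpinb2 at -2.14 and -3.53. Their interactions were -1.81 (SE 0.94), -1.47 (SE 1.07) and -1.39 (SE 1.09), with adjusted p from 0.366 to 0.542. A gene called in 1 setting alone is not thereby shown to differ between them.

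**Figure D4:**
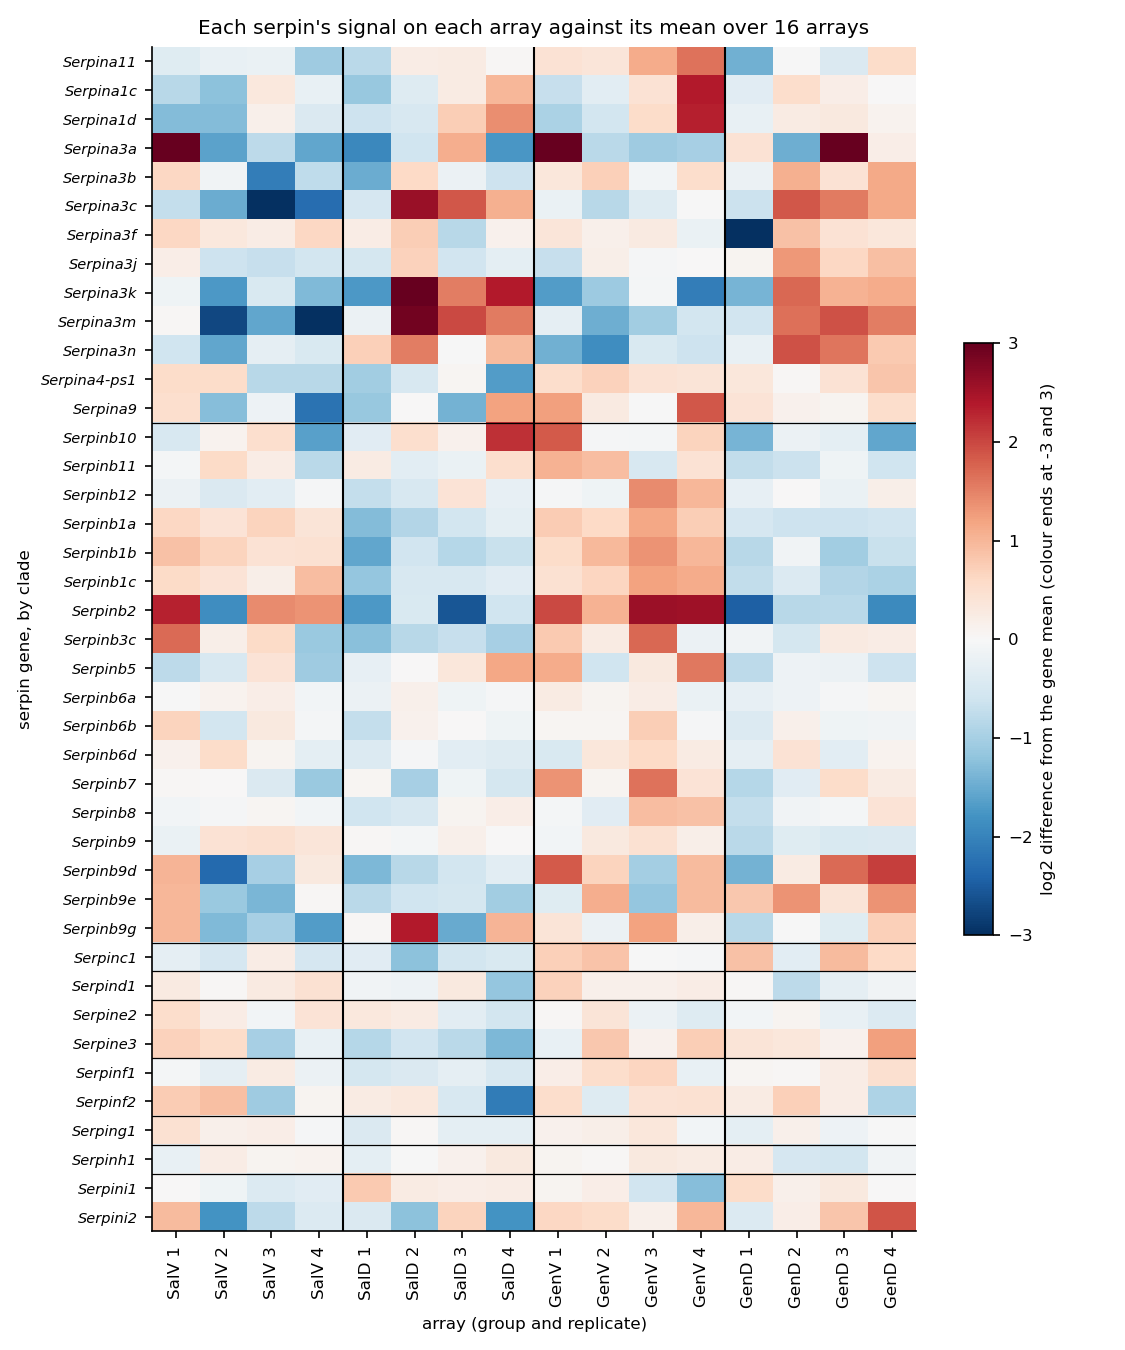
Each tested serpin (rows, by clade) on each of the 16 arrays (columns, by group and replicate), coloured by its log2 difference from its own mean over the 16 arrays, with the colour scale ending at -3 and 3. Serpinb1a, Serpinb1b and Serpinb1c are red on all vehicle arrays and blue or near white on the dexamethasone arrays, and 17 of the 18 clade B rows have a higher mean in GenV than in SalV.

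Neonatal genistein without dexamethasone left no serpin past the test. In GenV minus SalV none of the 41 was called by limma, where 0.00405% of all features were called (1 feature), and 6 serpins and 3430 features had an unadjusted p under 0.05. The smallest adjusted p was 0.344, which Serpina11, Serpina9, Serpinb5, Serpinb7 and Serpinb12 shared. Serpinb7, an epithelial clade B member chosen after its values were seen, measured -0.99, -1.01, -1.47 and -2.16 in SalV and 0.32, -0.96, 0.60 and -0.62 in GenV, a difference of 1.25 (SE 0.40). The signs were uneven, with 34 of 41 serpins (82.9%) above 0 against 55.5% of all features, and medians of 0.36 and 0.05. In clade B 17 of 18 genes were above 0, with a median of 0.44. GenV and SalV did not overlap for 2 serpins, where 4.78% of all features did not overlap.

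Squamous epithelium markers were read beside the clade B genes. The mean of the 6 basal squamous markers tested of 10 listed was highest on SalD replicate 4 (-0.77), GenV replicate 1 (-0.79) and GenV replicate 4 (-0.77), and between -2.78 and -1.26 on the rest. Serpinb5, known from basal epithelia, chosen after its values were seen, was highest on the same 3 arrays (-2.31, -2.37 and -1.91) and between -4.55 and -3.08 on the others. Krt6a, Sprr1b, Ivl and Dsg3 were not tested. None of the 6 was called in GenV minus SalV, where their median was 0.88. In GenD minus GenV, where 5 clade B genes fell, their median was -1.16 and Sprr1a fell by 1.49 (SE 0.39, limma adjusted p = 0.0426). In SalD minus SalV, with a median of 0.11, Trp63 rose by 0.99 (SE 0.33, limma adjusted p = 0.042) and Krt4 fell by 0.75 (SE 0.21, limma adjusted p = 0.0204). In GenD minus SalD, Trp63 was lower at -1.80 (SE 0.33, limma adjusted p = 0.00443) and Krt4 higher at 0.76 (SE 0.21, limma adjusted p = 0.0206). The part of squamous epithelium in the clade B values was not tested.

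With dexamethasone on both sides, genistein mice differed from corn-oil mice at 6 of 41 serpins (14.6%), 5 higher and 1 lower in GenD, where 22.9% of all features were called (16.6% higher and 6.39% lower). This comparison shares its arrays with both dexamethasone comparisons, so its values stand beside theirs and are not separate evidence. Higher in GenD were Serpine3, Serpinf1, Serpinc1, Serpinb9e and Serpina4-ps1, and Serpinb9 was lower. The median difference was 0.17 over the serpins and 0.12 over all features. The arrays of the groups did not overlap for 6 serpins, where 28.6% of all features did not.

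Serpinf1, pigment epithelium-derived factor, is a non-inhibitory serpin that restrains vessel growth and signals through the lipase Pnpla2. It measured 3.66, 3.74, 3.90 and 3.71 in SalD and 4.24, 4.22, 4.39 and 4.67 in GenD, without overlap, a log2 difference of 0.63 (SE 0.18, 1.54-fold, limma adjusted p = 0.0271). A second probe gave 0.83 (adjusted p = 0.0122), and it also fell in SalD minus SalV (-0.65, adjusted p = 0.0306). In the vehicle groups the levels were 4.11, 3.91, 4.41 and 4.01 in SalV and 4.38, 4.71, 4.82 and 3.97 in GenV, and no other comparison called the brighter probe. The call was lost without SalD replicate 1 (adjusted p = 0.0609), SalD replicate 4 (0.0611), GenD replicate 3 (0.0607) or GenD replicate 4 (0.0734), at 0.53 to 0.62, and in 3 other alternatives, among them median scaling (0.51, adjusted p = 0.0866).

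Serpinc1, antithrombin, measured -5.11, -5.99, -5.31 and -5.23 in SalD and -3.89, -5.09, -3.82 and -4.18 in GenD, a log2 difference of 1.17 (SE 0.31, 2.24-fold, limma adjusted p = 0.0188). GenD replicate 2 lay next to the SalD arrays, and within the slide it shared with SalD replicate 1 the difference was 0.03. A dimmer probe gave -0.21 (adjusted p = 0.735), so the probes of Serpinc1 disagreed, and with the mean of both probes the call was lost (0.48, adjusted p = 0.257), as it was without GenD replicate 3 (1.03, adjusted p = 0.0571). Serpine3, a clade E member, measured -5.87, -5.60, -5.82 and -6.35 in SalD and -4.62, -4.67, -4.87 and -3.77 in GenD, a difference of 1.42 (SE 0.36, 2.68-fold, limma adjusted p = 0.0159) that was called without each array in turn and lost under normexp (1.53, adjusted p = 0.056).

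Serpinb9e, a rodent relative of Serpinb9, measured -5.65, -5.45, -5.38 and -5.90 in SalD and -4.05, -3.51, -4.46 and -3.49 in GenD. Its difference of 1.72 (SE 0.54, 3.29-fold, limma adjusted p = 0.0349) was lost without any 1 of 7 arrays, at adjusted p up to 0.0804: each of the 4 SalD arrays and GenD replicates 1, 2 and 4. Serpinb9 was lower in GenD by a log2 difference of -0.55 (SE 0.17, limma adjusted p = 0.0324) on its brighter probe and differed by 0.32 (adjusted p = 0.148) on the dimmer one. It was lost without SalD replicates 1, 3 or 4 or GenD replicates 1, 3 or 4, at adjusted p up to 0.0819, under normexp (-0.12, adjusted p = 0.749) and with the mean of its probes (-0.12, adjusted p = 0.501). Serpina4-ps1, a pseudogene of the kallistatin type, was not well above background on any SalD array and was on 2 GenD arrays. It passed the filter without SalD, through 1 SalV, 3 GenV and these 2 GenD arrays. The measured log2 difference, which rests on undetected SalD levels, was 1.20 (SE 0.38, limma adjusted p = 0.0386). The bound described for Serpina3k was 1.09-fold for this gene and was not itself tested. Its measured levels overlapped, and the call was lost without SalD replicates 1 or 4 or GenD replicates 1, 3 or 4, at adjusted p up to 0.109, under quantile normalization (0.75, adjusted p = 0.227), normexp (0.0752), the replicate block (0.0502) and the variance trend (0.0655).

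Of 12 lymphocyte markers, 8 were higher in GenD than in SalD, the comparison in which these serpins were called and 16.6% of all features were higher. In SalD minus SalV 8 of the markers fell, where 14.6% of all features were lower. None of these serpins was called in SalD minus SalV on its brightest probe. The mean level of the 12 markers was -5.09 to -4.37 in SalD, -3.87 to -3.32 in GenD and -3.79 to -3.10 in the vehicle groups. The part of lymphocytes in the serpin differences was not tested. Of 10 endothelium markers, 5 fell in SalD minus SalV and none rose, and 2 were higher in GenD than in SalD and none lower.

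Slides held arrays of several groups, and 51 within-slide differences could be formed for the 19 called differences. All 51 had the sign of the fit, although they use the same arrays. Serpinb1a differed by -1.72 to -0.95 within slides in SalD minus SalV and by -1.37 to -1.16 in GenD minus GenV. The within-slide range was 0.99 to 4.16 for Serpina3c, 2.20 to 5.22 for Serpina3m, and 0.43 to 2.28 for Serpina3n in SalD minus SalV. With slide as a fixed block 7, 6 and 6 serpins were called in SalD minus SalV, GenD minus GenV and GenD minus SalD, and 5 calls were lost, those of Serping1 (adjusted p = 0.0512), Serpinb9 in both comparisons (0.0556 and 0.0921), Serpinc1 (0.0796) and Serpina4-ps1 (0.0974).

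Of the enzymes that serpins restrain, 31 of 36 listed were tested. In SalD minus SalV 3 rose and 4 fell, 22.6% of the list against 23.0% of all features. Those with the largest size of change were the leukocyte protease Ctsg at -2.71 (SE 0.79, limma adjusted p = 0.026), the contact factor F12 at -1.42 (SE 0.40, limma adjusted p = 0.0228) and the killer-cell protease Gzmb at -1.42 (SE 0.48, limma adjusted p = 0.0451). Prtn3 fell as well, and C1ra, Ctsl and Klk1 rose. Gzmb also stands among the lymphocyte markers. In GenD minus GenV, Ctsl, a lysosomal cathepsin, rose by 0.58 (SE 0.11, limma adjusted p = 0.00906) and no other was called. That was 3.23% of the list against 5.28% of all features. Against SalD, GenD had 4 higher, which were Prtn3, Ctsg at 3.03 (SE 0.79), F12 at 1.54 (SE 0.40) and Gzmb at 1.42 (SE 0.48), and 1 lower, C1ra. These were 16.1% of the list against 22.9% of all features. Elane, the main target of Serpinb1a, was not tested. The plasminogen activators Plat and Plau, the second a target of Serpinb2, were called in no comparison.

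Of 13 cofactors and clearance receptors, 12 were tested. In SalD minus SalV 3 rose and 2 fell, 41.7% of the list against 23.0% of all features. They were led by the Serpinf1 receptor Pnpla2 at 2.10 (SE 0.20, limma adjusted p = 3.9e-05), then Lrp1, which clears serpin-protease complexes, at -1.11 (SE 0.26, limma adjusted p = 0.00853) and F2rl1 at 1.02 (SE 0.27, limma adjusted p = 0.0155). None was called in GenD minus GenV, and Pnpla2 was lower in GenD than in SalD, at -1.21 (SE 0.20, limma adjusted p = 0.00368). Pnpla2 was the only member called in GenD minus SalD, 8.33% of this list against 22.9% of all features. Pnpla2 is also the main triglyceride lipase of fat cells. Of 10 fat cell markers, 6 rose in SalD minus SalV and none was called in GenD minus SalD. The part of fat cells in the Pnpla2 values was not tested. Of 24 protease inhibitors of other families, 22 were tested. Pi15 rose by 1.30 (SE 0.30) and Cst6, a cystatin, fell by 0.64 (SE 0.22) in SalD minus SalV. Wfdc1 rose by 1.73 (SE 0.34) and Reck, a membrane inhibitor of matrix metalloproteinases, by 1.04 (SE 0.26) in GenD minus GenV, and Pi15 was lower in GenD than in SalD at -1.01 (SE 0.30). In SalD minus SalV 9.09% of these inhibitors were called, against 23.0% of all features. The shares were 9.09% against 5.28% in GenD minus GenV and 4.55% against 22.9% in GenD minus SalD. Neither list had a call in GenV minus SalV.

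Plasma serpins of clade A come mainly from liver, so markers of that and of the other tissues a uterus sample could hold were read beside them. Of 6 liver markers tested, Ahsg and Apoh rose in both dexamethasone comparisons, and Alb and Fgb were not well above background on enough arrays to be tested. The mean level of the liver list was -7.24 to -6.58 in SalV, -6.64 to -6.42 in SalD, -7.07 to -6.19 in GenV and -6.28 to -5.60 in GenD. These means lie near the detection floor, as the lowest level well above background was -7.69 to -6.12 by array. Fga, Ttr, Apoa2 and Apoh were well above background on 5, 7, 8 and 10 of the 16 arrays, Apoa1 and Ahsg on 15 and 16. In SalD minus SalV, 1 of 10 uterine epithelium markers rose, 1 of 9 endometrial stroma markers rose and 1 fell, 2 of 9 smooth muscle markers fell, 2 of 8 mast cell markers rose, and 1 of 6 mesothelium markers rose and 1 fell. In GenD minus GenV, 1 of 10 uterine epithelium markers rose, 3 stroma markers rose and 1 fell, no smooth muscle marker was called, 1 mast cell marker rose and 1 mesothelium marker fell. Over all features, 23.0% were called in SalD minus SalV and 5.28% in GenD minus GenV. The part of these tissues in the serpin values was not tested.

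The remaining 27 tested serpins were called in no comparison. In clade A they were Serpina11, Serpina1c, Serpina1d, Serpina3a, Serpina3b, Serpina3f, Serpina3j, Serpina3k and Serpina9. In clade B they were Serpinb10, Serpinb11, Serpinb12, Serpinb3c, Serpinb5, Serpinb6a, Serpinb6b, Serpinb6d, Serpinb7, Serpinb8, Serpinb9d and Serpinb9g, and outside these clades Serpind1, Serpine2, Serpinf2, Serpinh1, Serpini1 and Serpini2. Of these, Serpinb3c, chosen after its values were seen, fell in SalD minus SalV on its dimmer probe (-1.14, adjusted p = 0.0111) and was at -1.28 (adjusted p = 0.073) on the brighter one. Its dimmer probe was also higher in GenD than in SalD (1.25, adjusted p = 0.0096), where the brighter one, at 0.91 (adjusted p = 0.184), was not called although its arrays did not overlap. Clades D, H and I had no call. Serpinh1, the collagen chaperone HSP47, measured 4.77 to 5.37 in SalV and SalD and 4.52 to 5.36 in GenV and GenD, with a largest difference of -0.40 (SE 0.18, adjusted p = 0.264) in GenD minus GenV. Serpini1, neuroserpin, differed by 0.57 (SE 0.27, adjusted p = 0.139) in SalD minus SalV and 0.64 (SE 0.27, adjusted p = 0.225) in GenD minus GenV. Serpind1, heparin cofactor II, differed by -0.54 (adjusted p = 0.156) and -0.58 (adjusted p = 0.273).

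Another 13 serpins had a probe that did not pass the filter, namely Serpina10, Serpina12, Serpina1f, Serpina5, Serpina6, Serpina7, Serpinb13, Serpinb3a, Serpinb3b, Serpinb3d, Serpinb9b, Serpinb9c and Serpinb9f. Serpina6 is corticosteroid-binding globulin, the plasma carrier of glucocorticoids, and no array held it well above background. Serpinb9f was well above background on 3 arrays, 1 each in SalV, GenV and GenD, and Serpinb3b on 2 GenV arrays. The other 14 of the 68 genes had no probe here. Because the filter let a gene in through any group where it was bright, the 41 tested genes do not stand for all serpins.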

How the data were processed

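Total RNA from whole mouse uterus was labelled with Cy3 and hybridised to 16 one-colour Agilent arrays. The deposited intensity values are the scanner's background-subtracted processed signals. Feature Extraction 9.5 is named in the submitters' processing notes and version 12.0.0.7 per the file headers. The values of the series' table equal these signals (largest difference 0). Flags for background and outliers were used as the authors deposited them. The log2 signal minus each array's 75th percentile was analysed, leaving out 1639 control spots of 45018, outlier-flagged spots and 807 probes with a missing array. Probes had to exceed background clearly on 4 or more arrays, and the brightest remaining one stood for its gene (32614 probes, 24666 features). Of 29245 probes with a RefSeq accession, 28223 matched a symbol.

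The model, run in R 4.3.3 with limma 3.58.1, had 4 group means and used all 16 arrays. The p-values were adjusted over all features by Benjamini and Hochberg. The fit was tested on simulated data with independent noise and added shifts. That simulation held no slide effects, cell mixture or floor levels, so it cannot speak to them. Values are given for each member called in any of 5 comparisons, for the brightest member of a clade without a call, and for up to 3 called genes of a pathway list. Members and lists were chosen with earlier results of these data known. Promoter windows came from RefSeq. The alternatives changed scaling, background correction, filter, probe rule, blocks, weights and arrays. Probe sequences were not used here. A gene of the family stayed in the fit but is not reported here.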

Additional observations from a re-analysis of the deposited data

Results flagged for a closer look

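Among 164 groups of 4 arrays, 11 had 1 array far from the others by Dixon's criterion, where chance gives about 1 in 20 groups. In SalV, replicate 1 was high for Serpina3a at -3.82 (nearest array -8.45) and Serpina3j at -4.23 (nearest -4.99), and low for Serpinb9 at -2.17 (nearest -1.59). In SalD, replicate 1 was low for Serpinb1c at -3.6 (nearest -2.91) and high for Serpini1 at -0.93 (nearest -1.47).

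In GenV, replicate 1 was high for Serpina3a at -4.15 (nearest -8.48) and for Serpind1 at -4.98 (nearest -5.46), replicate 2 was low for Serpinf2 at -5.36 (nearest -4.52), and replicate 3 was high for Serpinb6b at -0.06 (nearest -0.74). In GenD, replicate 1 was low for Serpina3f at -8.59 (nearest -3.95) and for Serpina3m at -2.67 (nearest -0.55).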

How the results depend on the processing

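Of the 19 called serpin differences, 4 were called under every one of the 30 alternatives, namely Serpinb1a in both dexamethasone comparisons and Serpinb1b and Serpinb1c in SalD minus SalV, and none of the 19 changed direction. Of 41 serpins, SalD minus SalV called 7, and 3 with SalD replicates 2 and 3 both left out. GenD minus GenV called 6, and 2 under normexp background correction and 16 with array weights. GenD minus SalD called 6, and 3 under quantile normalization, 2 under normexp, 11 with array weights and 2 without SalD replicates 2 and 3. Leaving out 1 array gave 5 to 8, 4 to 6 and 2 to 7 called serpins in these comparisons, and 0 in the interaction and in GenV minus SalV. In GenD minus SalD the count was 2 without SalD replicate 1, SalD replicate 4, GenD replicate 3 or GenD replicate 4. Serpina3k, which was not called, turned to -0.57 in SalD minus SalV under normexp. Over all features, SalD minus SalV called 5670 (3109 to 6896 across alternatives), GenD minus GenV 1303 (370 to 6061), GenD minus SalD 5660 (2396 to 11033), the interaction 0 (0 to 96) and GenV minus SalV 1 (0 to 2). Quantile normalization and median scaling moved the share of calls that were higher in GenD minus SalD from 72.2% to 56.3%, and in SalD minus SalV from 36.7% to 47.3% and 64.8%. With the replicate number as a block, 6, 6 and 5 serpins were called in SalD minus SalV, GenD minus GenV and GenD minus SalD and 0 in the other comparisons. Deviations of same-numbered arrays correlated between -0.368 and 0.378, over 0.1 in 8 of 24 pairs, and between 0.065 and 0.357 in the 4 pairs of SalD with GenD. Deviations of differently numbered arrays were not compared, so these values do not decide whether the numbers pair the arrays. The main fit had no block because the labels name no shared animal, litter or day for a replicate number. The normexp alternative used median signals. Signal over background limits the dim members, such as Serpina3k and Serpina4-ps1, to bounds. The cause of these changes was not tested.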
